A study of Mus musculus with 10 samples.

Results

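The genes of the core circadian clock were followed in the mouse hippocampus with and without neuronal overexpression of the transcriptional coactivator PGC-1α (gene Ppargc1a). They were Arntl, Clock, Per1, Per2, Per3, Cry1, Cry2, Nr1d1, Nr1d2 and Dbp, which made up 10 of the 23458 genes that could be named on the array and 19 of its 56605 probes. A probe was taken as a clock gene probe when its RefSeq accession belonged to one of these 10 symbols, and no measured value entered the choice. The mice were labelled male and 12 weeks old, and 5 arrays were hybridised per group. The control group, PGC-1α f/f, carried a PGC-1α transgene with an IRES-eGFP reporter in the Rosa26 locus behind a loxP-flanked PGK-neo-STOP cassette and had no Cre recombinase (littermate controls). The nPGC-1α group carried the same transgene together with Cre under the neuronal Eno2 promoter, which removes the cassette in neurons only, so that glia and vessel cells in the same tissue keep it. All mice were on a C57BL/6 background, were housed in a 12-h light and dark cycle and had no vascular surgery. The hour of the day at which each hippocampus was frozen is not given in the sources used here. The labels name the cell type as neuron, but whole hippocampus was extracted, and in such bulk tissue fewer cells of a type and less RNA per cell cannot be told apart.

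The mammalian clock is a transcriptional feedback loop that runs in almost every cell. ARNTL (also called BMAL1) and CLOCK form a dimer that binds E-box elements and switches on the Per and Cry genes, whose proteins return to the nucleus and inhibit the dimer. The same dimer drives Nr1d1 and Nr1d2, which encode the REV-ERB repressors that silence Arntl through ROR elements, and Dbp, an output factor that binds D-box elements. Because of this wiring, Arntl and E-box targets such as Nr1d1 and Dbp peak at nearly opposite times of day in most tissues, hippocampus included. Samples collected at different hours spread along that opposition. PGC-1α is known in liver and muscle as a coactivator of the ROR receptors at the Arntl promoter.

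The elements named above could be read in the promoters of the clock genes, and the 5 promoters that carry one upstream of a start are shown so that the wiring behind the comparisons can be seen. Windows from 250 bases before to 50 bases after each annotated start were taken from RefSeq on GRCm38.p6, and 9 of the 10 genes had at least 1 window (Per2 had none). Capitals mark the matched element, and each sequence is written 5′ to 3′ on the strand of its gene. The motifs searched on both strands were the E-box, with the letters CACGTG, and the E′-box, with the letters CACGTT and so AACGTG when read on the other strand. The D-box was searched as TTATGTAA and as TTACGTAA. The ROR element was searched as TAGGTCA and as TGGGTCA, and the cyclic AMP element as TGACGTCA. No letters of a motif hold those of another.
Per1 (chr11:69098753-69098818, plus strand, E-box 166 bases upstream of the start): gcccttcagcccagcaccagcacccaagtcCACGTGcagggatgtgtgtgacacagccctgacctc
Per3 (chr4:151044786-151044900, minus strand, D-boxes 205 and 158 bases upstream): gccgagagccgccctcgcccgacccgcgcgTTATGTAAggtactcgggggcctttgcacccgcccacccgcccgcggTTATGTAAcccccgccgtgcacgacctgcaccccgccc
Cry1 (chr10:85185079-85185163, minus strand, E′-box 79 and E-box 60 bases upstream): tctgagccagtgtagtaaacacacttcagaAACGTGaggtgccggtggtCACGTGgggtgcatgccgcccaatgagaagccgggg
Cry2 (chr2:92434200-92434265, minus strand, E′-box 166 bases upstream): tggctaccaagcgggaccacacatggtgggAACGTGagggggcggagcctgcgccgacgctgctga
Nr1d1 (chr11:98775378-98775435, minus strand, E′-box 28 bases upstream): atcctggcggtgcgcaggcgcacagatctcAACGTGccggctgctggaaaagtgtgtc

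Of all 32851 promoter windows, 7.15% held the E-box, 4.68% the E′-box, 1.06% the D-box, 6.45% the ROR element and 1.79% the cyclic AMP element. A sixth gene, Arntl, held a ROR element 31 bases past 1 of its starts. The windows of Clock, Nr1d2 and Dbp held none of these letters. A match describes the sequence and says nothing of binding in these mice.

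Before the groups were compared, their labels were checked. Ppargc1a itself, read by 1 tested probe, lay between 2.58 and 2.78 on the PGC-1α f/f arrays and between 2.49 and 2.77 on the nPGC-1α arrays (log2 level, with 0 at the 75th percentile of each array), a difference of 0.00 with limma (SE 0.09, adjusted p = 0.990), so this probe did not set the groups apart. Whether it reads the transgene is not given in the sources used here. The marker list of hippocampal neurons was above background on all 10 arrays for 10 of its 10 genes. All 4 Y-linked transcripts read were well above background on 4 arrays (PGC-1α f/f replicate 1 and nPGC-1α replicates 1, 3 and 5) and at most 1 of them on the other 6, although all were labelled male. The nPGC-1α arrays had a higher noise level, 13.8 ± 4.08 signal units against 6.32 ± 1.54 (SD, n = 5 each, exact permutation test, two-sided, p = 0.00794), and fewer spots well above background, 71.2% ± 2.57 against 79.0% ± 2.79 (exact permutation p = 0.00794). On slide 1 all PGC-1α f/f arrays lay in the first row and all nPGC-1α arrays in the second, so row and genotype cannot be told apart there. On slide 2 both arrays lay in the first row, and the nPGC-1α array again had the higher noise (11.6 against 6.14) and fewer spots well above background (72.0% against 78.3%).

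No clock gene passed the test of a difference between the groups. Of the 10 genes, each represented by its brightest tested probe, 0 passed an unadjusted limma p of 0.05, against 12.2% of all 39142 tested probes, and 0 passed the adjusted threshold, against 0.00255% (1 probe). The differences ran from -0.18 to 0.19 on the log2 scale, with 4 genes higher and 6 lower in nPGC-1α, a median of -0.04, and -0.05 over all tested probes. In every one of the 10 genes the values of the groups overlapped, where 2.85% of probes did not overlap. The 95% intervals of the differences bound what could have been missed. Taken over the 10 genes, they reached from a nPGC-1α level 0.655 times the control level (Per2) to 1.47 times (Nr1d1). In simulated arrays of this size, changes of 0.5 on the log2 scale were recovered in 0% of cases, changes of 1 in 61% and changes of 2 in 97%.

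**Figure D1:**
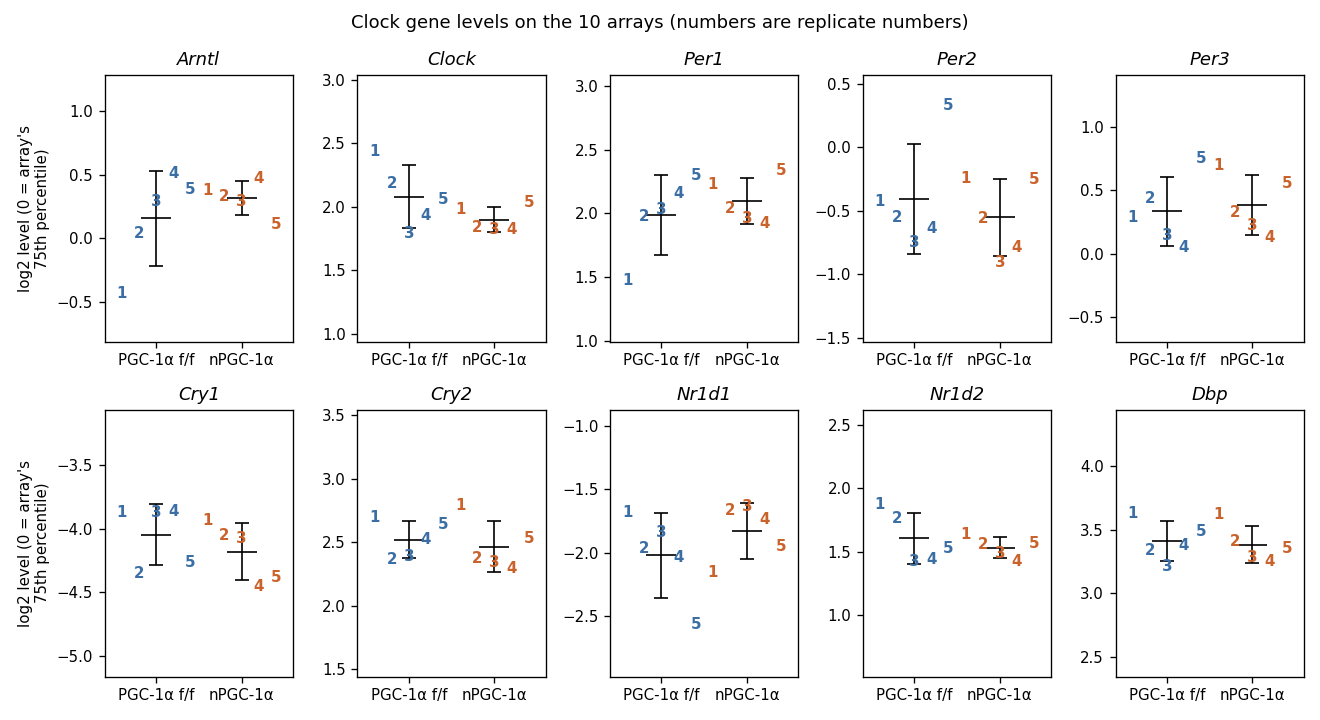
Log2 level (vertical axis, 0 at the 75th percentile of the array) of the 10 clock genes in PGC-1α f/f (blue) and nPGC-1α (orange) hippocampus. Each digit is 1 array placed at its level and shows its replicate number, the bars give the mean and SD (n = 5), all panels span the same range, and the groups overlap in each of the 10 panels.

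Among the activators, Arntl varied most in the controls. Its brightest probe, A_52_P267651, read -0.44, 0.03, 0.29, 0.51 and 0.38 on PGC-1α f/f arrays 1 to 5 and 0.38, 0.33, 0.29, 0.47 and 0.11 on nPGC-1α arrays 1 to 5. The nPGC-1α values lay inside the control range, and the lowest reading came from PGC-1α f/f replicate 1, one of the arrays with over 10% of spots marked as outliers. The means were 0.15 ± 0.37 and 0.31 ± 0.13 (SD, n = 5), a difference of 0.16 (SE 0.17, limma adjusted p = 0.716) that was 0.01 without that array. The other Arntl probes, A_55_P2735445 and A_66_P127371, gave differences of the other sign, -0.11 (SE 0.21) and -0.15 (SE 0.18). The 3 probes followed each other weakly over the 10 arrays, with r between 0.05 and 0.42, so the level of Arntl on a given array depended on the probe read.

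Clock, the partner of Arntl in the dimer, was read at 2.43, 2.19, 1.79, 1.93 and 2.06 on the PGC-1α f/f arrays and at 1.98, 1.84, 1.82, 1.82 and 2.03 on the nPGC-1α arrays. The nPGC-1α arrays covered a narrow band near the lower part of the control range. Their means were 2.08 ± 0.25 and 1.90 ± 0.10, a difference of -0.18 (SE 0.12, limma adjusted p = 0.569; -0.09 without PGC-1α f/f replicate 1), the most negative among the 10 genes, with a 95% interval from -0.45 to 0.09. With the class of Y-linked signal in the fit the difference was -0.28 (unadjusted p = 0.0388, adjusted p = 0.419). Of its other probes, 1 was above background on 3 of 10 arrays and 1 was an outlier spot on 3 nPGC-1α arrays, so neither was tested. The dim probe had r = -0.59 (rho -0.49, 10 arrays) with the tested probe, and the other, A_52_P334670, r = -0.48 (rho 0.11, 7 arrays). On PGC-1α f/f replicate 1, A_52_P334670 read lowest (0.45), where the tested probe read highest. The level of Clock on a given array thus depended on the probe read.

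The Per genes, the first repressors of the loop, had no common direction. Per1, which also responds quickly to neuronal activity and light, read 1.47, 1.97, 2.03, 2.16 and 2.30 in PGC-1α f/f and 2.22, 2.04, 1.96, 1.92 and 2.34 in nPGC-1α. PGC-1α f/f replicate 1 stood lowest, as it did for Arntl, and the difference was 0.11 (SE 0.15, limma adjusted p = 0.787). Without that array it was -0.02.

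Per2, the member that varied most, read -0.43, -0.55, -0.75, -0.64 and 0.33 in PGC-1α f/f and -0.25, -0.56, -0.91, -0.79 and -0.25 in nPGC-1α. PGC-1α f/f replicate 5 lay above every other array, and the 10 arrays spanned 1.24 on the log2 scale, an SD larger than that of 75.5% of tested probes. The difference was -0.15 (SE 0.21, limma adjusted p = 0.8002) and became 0.04 without that array. The other Per2 probe, A_52_P536869, gave -0.14 (SE 0.18) but ran against the first over the 10 arrays (r = -0.46, rho = -0.39).

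Per3 read 0.29, 0.44, 0.14, 0.05 and 0.75 in PGC-1α f/f and 0.69, 0.32, 0.22, 0.13 and 0.55 in nPGC-1α. Replicate 5 was again highest among the controls, and the difference was 0.05 (SE 0.15, limma adjusted p = 0.913). A second Per3 probe was above background on 6 of 10 arrays and was not tested. It had r = -0.41 (rho -0.04, 10 arrays) with the tested probe.

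The cryptochromes, the stronger inhibitors of the dimer, differed between the groups by no more than their spread. Cry1 read -3.87, -4.35, -3.87, -3.86 and -4.27 in PGC-1α f/f and -3.94, -4.05, -4.08, -4.45 and -4.38 in nPGC-1α, a difference of -0.13 (SE 0.14, limma adjusted p = 0.723). Another Cry1 probe was marked as an outlier spot on 8 of 10 arrays and could not be tested. Cry2 read 2.69, 2.37, 2.39, 2.53 and 2.64 against 2.79, 2.37, 2.34, 2.30 and 2.53, a difference of -0.06 (SE 0.12, limma adjusted p = 0.869). In both groups replicates 1 and 5 held the highest Cry2 values.

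The REV-ERB genes and Dbp, direct targets of the dimer, likewise gave no difference beyond their spread. Nr1d1, which represses Arntl, read -1.69, -1.96, -1.84, -2.04 and -2.57 in PGC-1α f/f and -2.15, -1.67, -1.64, -1.74 and -1.95 in nPGC-1α. Of the controls, 4 lay within the nPGC-1α range and replicate 5 lay below it. The means were -2.02 ± 0.33 and -1.83 ± 0.22, a difference of 0.19 (SE 0.17, limma adjusted p = 0.665), the largest among the 10 genes and a size reached by 37.7% of tested probes. Without replicate 5 of PGC-1α f/f it was 0.05.

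Its paralogue Nr1d2 read 1.87, 1.76, 1.43, 1.44 and 1.53 in PGC-1α f/f and 1.63, 1.55, 1.49, 1.42 and 1.56 in nPGC-1α, a difference of -0.07 (SE 0.11, limma adjusted p = 0.797). Dbp, whose RNA swings widely over the day in most tissues, read 3.63, 3.34, 3.21, 3.38 and 3.49 in PGC-1α f/f and 3.62, 3.41, 3.28, 3.25 and 3.35 in nPGC-1α. The 10 arrays therefore lay within 0.42 of each other on the log2 scale, and 18.5% of tested probes had a smaller SD than this probe. The difference was -0.03 (SE 0.11, limma adjusted p = 0.938), and the second Dbp probe gave 0.01 (SE 0.11) and followed the first over the arrays (r = 0.85, rho = 0.81). Among the 3 genes with more than 1 tested probe, the probes of Dbp followed each other over the arrays more closely than those of Arntl or Per2.

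**Figure D2:**
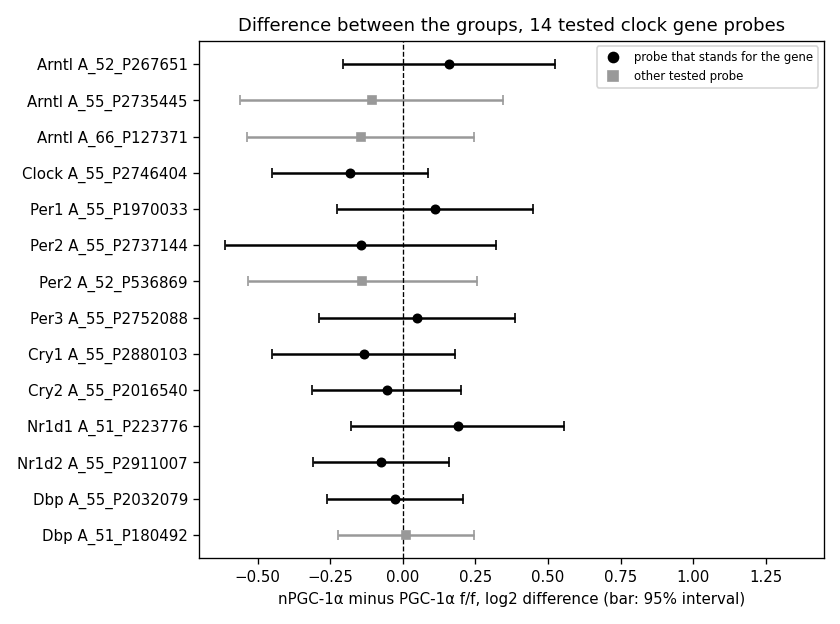
Difference between nPGC-1α and PGC-1α f/f (horizontal axis, log2) for the 14 tested clock gene probes, with bars for the 95% interval of the limma fit (n = 5 arrays per group). Black points are the brightest tested probe of each gene and grey squares the other tested probes, and each of the 14 intervals crosses 0.

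The question of whether the clock genes moved together from array to array was then addressed over the 10 arrays, as a description without tests, apart from 2 relations of Arntl. The 45 pairs of genes had correlations from -0.86 to 0.91 with a median of 0.09, of which 20 were negative and 25 positive. Taken over both activators, opposition to the targets was not general, and Arntl and Clock differed in it. Of the 12 pairs joining Arntl or Clock with Per1, Per2, Per3, Nr1d1, Nr1d2 or Dbp, 7 were negative and 5 positive, with a median r of -0.07. Arntl had r = -0.86 with Nr1d2, -0.40 with Dbp, -0.31 with Nr1d1, -0.08 with Per3 and -0.06 with Per2. Its r with Per1 was 0.68, and -0.03 without PGC-1α f/f replicate 1. Clock had r = -0.47 with Per1, -0.15 with Nr1d1, 0.33 with Per3, 0.42 with Per2, 0.66 with Dbp and 0.91 with Nr1d2. The 15 pairs within the targets had a median of 0.26, with 6 negative and 9 positive.

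**Figure D3:**
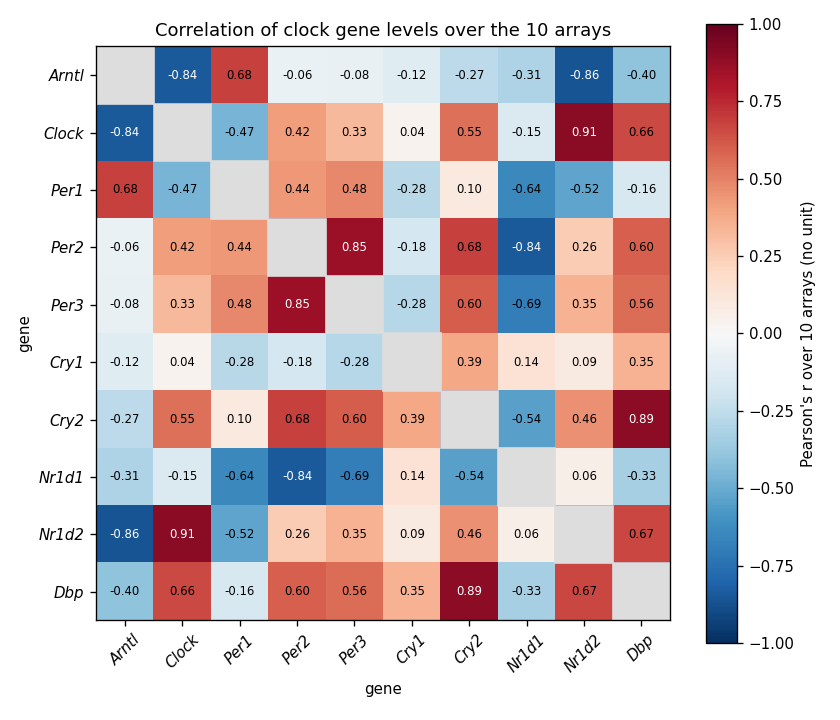
Pearson's r over the 10 arrays for each pair of the 10 clock genes, from -1 (blue) to 1 (red). Per2, Per3, Cry2 and Dbp form a block of positive values, while Nr1d1 is negative with the 3 Per genes and with Cry2, and Arntl is negative with Clock and Nr1d2.

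Per2 and Per3, as read by the probes used, gave a pair that stayed positive in each setting given here. Their r was 0.85 (rho 0.85, n = 10) and stayed between 0.81 and 0.89 when each array was left out. It was 0.76 on the 8 arrays of slide 1 and 0.83 after quantile normalisation. Of 34000 probes with 10 values, 1.62% followed Per2 as closely as Per3 did. The relation holds for the probes used, as another probe ran against the one used for Per2 (r = -0.46) and for Per3 (r = -0.41). Dbp and Cry2 had r = 0.89 (rho 0.79), a value that 0.488% of probes reached with Dbp, and r was 0.65 after quantile normalisation. The signal at the 75th percentile, the value each array is scaled by, ran against both (r = -0.71 with Dbp and -0.68 with Cry2) and also against Clock (r = -0.69), and its part in these pairs was not tested.

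Nr1d1 ran against the Per genes, although both are driven by the same dimer. Its r was -0.84 with Per2 (rho -0.67), -0.69 with Per3 (rho -0.45) and -0.64 with Per1 (rho -0.66). Of all probes, 1.8% ran as far against Per2 as Nr1d1 did. The pair with Per2 leaned on PGC-1α f/f replicate 5, which had the highest Per2 and the lowest Nr1d1 level. On slide 1, which does not hold that array, r was -0.56, and without the 2 arrays farthest from the Per2 median it was -0.44. Nr1d1 and its paralogue Nr1d2 were close to unrelated over the arrays (r = 0.06, rho -0.10).

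The most negative pairs of Arntl were those with Nr1d2 and with its partner Clock. Arntl and Nr1d2 had r = -0.86 (rho -0.66), a value that 0.635% of probes reached with Arntl, and Arntl and Clock had r = -0.84 (rho -0.39), reached by 0.974%. Both leaned on PGC-1α f/f replicate 1, where the probes used read Arntl lowest and Clock and Nr1d2 highest. Another Clock probe, not tested, read lowest on that array, so the relations of Clock given here hold for the tested probe. Without that array r was -0.69 and -0.55, and without the 2 arrays farthest from the Arntl median it was -0.38 and -0.17. Clock and Nr1d2 rose and fell together (r = 0.91, rho 0.82, a value reached by 0.95% of probes with Clock), and r was 0.80 without that array and 0.58 without the 2 arrays farthest from the Clock median. The signal at the 75th percentile ran against Clock (r = -0.69) and Nr1d2 (-0.60) and with Arntl (0.43). The share of outlier spots ran with Clock (0.51) and Nr1d2 (0.68) and against Arntl (-0.56). The part of these measures in the pairs was not tested. The correlations of Per1 also depended on PGC-1α f/f replicate 1. Without it r rose from 0.44 to 0.82 for Per1 with Per2, from 0.48 to 0.68 with Per3 and from 0.10 to 0.81 with Cry2. The r of 0.68 between Per1 and Arntl became -0.03.

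**Figure D4:**
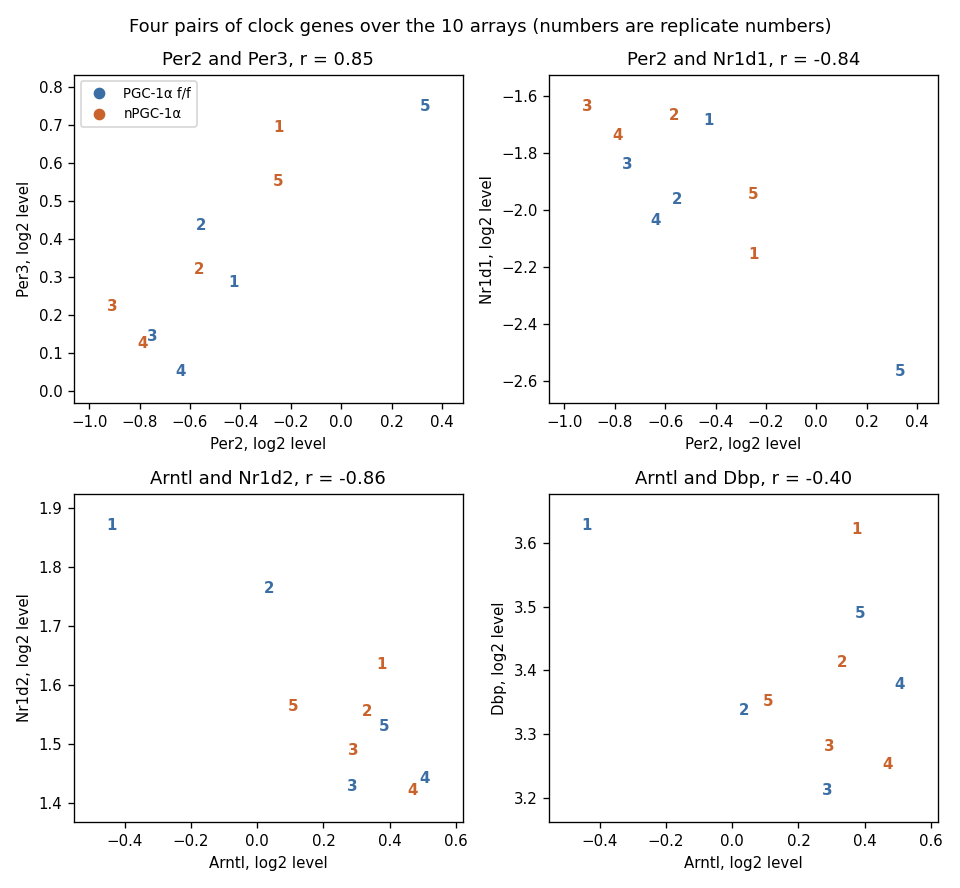
Log2 levels of pairs of clock genes over the 10 arrays, with digits for the replicate number, blue for PGC-1α f/f and orange for nPGC-1α. Per2 and Per3 run along a rising line (r = 0.85), the falling relations of Per2 with Nr1d1 and of Arntl with Nr1d2 have replicate 5 and replicate 1 of PGC-1α f/f at their ends, and Arntl and Dbp show no clear line (r = -0.40).

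Arntl was tested against 2 targets chosen for their place in the loop, with permutations that treat the arrays as exchangeable although they share slides and groups. With Dbp its r was -0.40 (permutation test with 100000 resamples, two-sided, p = 0.250, adjusted over the 2 relations 0.348) and rho was -0.04 (permutation p = 0.918). It became 0.15 without the 2 arrays farthest from the Arntl median, so the sign rested on those arrays. With all tested probes of a gene averaged it was -0.69 (permutation p = 0.0227), and with the replicate number as a block it was 0.31. With Nr1d1 r was -0.31 (permutation p = 0.348, adjusted 0.348) and rho -0.35 (permutation p = 0.329). At least as negative an r with Arntl was found for 30.8% of probes in the first case and 39.1% in the second. On slide 1 alone, r was -0.49 with Dbp and -0.30 with Nr1d1.

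When Arntl and Clock were averaged into an activator score and the 6 targets into a target score (each gene as its deviation from its mean over the arrays), the scores had r = 0.20 (rho 0.22, jackknife SE 0.41, n = 10). With the replicate number as a block r was 0.89 (rho 0.89), over what are then 5 independent differences. The value depended on which activator was read, being -0.23 with Arntl alone and 0.47 with Clock alone. When Npas2, a neuronal paralogue of Clock, was added to the activators it was -0.68. The deviations are not scaled, and Npas2 spanned 1.77 on the log2 scale, against 0.95 for Arntl and 0.64 for Clock. Its own r with the target score was -0.75 (centred on the group means), so it weighed most in that value. The target score stood at 0.03, 0.01, -0.12, -0.10 and 0.14 on PGC-1α f/f arrays 1 to 5 and at 0.13, 0.02, -0.09, -0.13 and 0.11 on nPGC-1α arrays 1 to 5. Arrays of the same number thus lay close together, and on slide 1 they shared a column of the slide. The largest gap within a number was 0.10, or 0.386 of the whole range of 0.27, and 6.83% of probes had as small a share. For Dbp the share was 0.333, reached by 3.3% of probes, for Cry2 0.461 (14.6%) and for Per2 0.470 (15.7%), whereas for Arntl it was 0.861 (80.6%) and for Per1 0.868 (81.3%). The share of outlier spots on an array ran with Dbp (r = 0.78) and Cry2 (r = 0.72) and reached 10.5% and 11.6% on the arrays numbered 1. Its part in this arrangement was not tested.

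**Figure D5:**
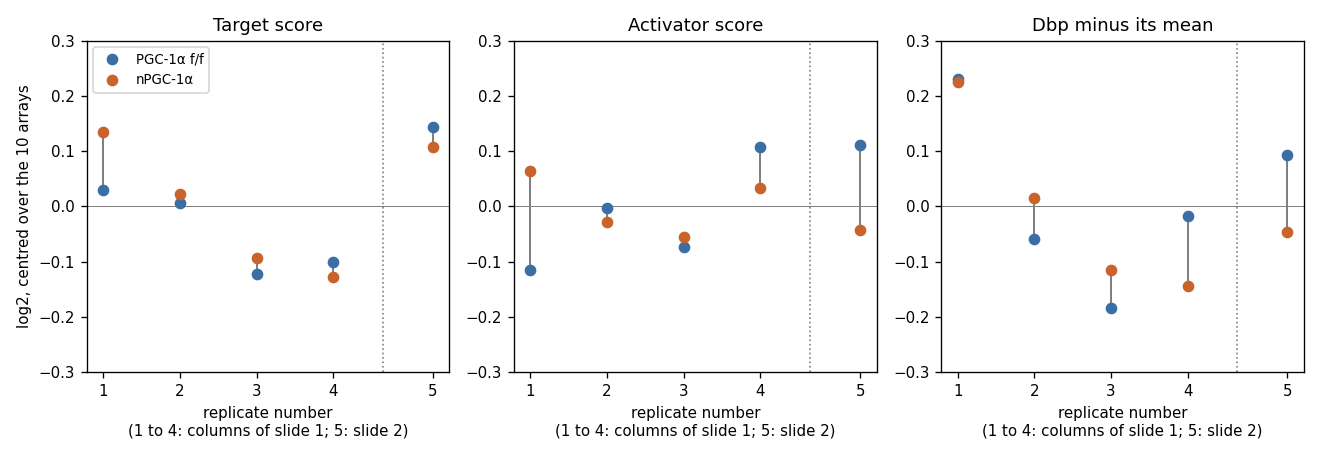
Target score, activator score and Dbp (vertical axes, log2, centred over the 10 arrays) by replicate number, with blue for PGC-1α f/f and orange for nPGC-1α, and a grey line joining arrays of the same number. Numbers 1 to 4 are the columns of slide 1 and number 5 is slide 2, and the joined target scores lie within 0.10 of each other while the activator scores lie up to 0.18 apart.

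The wider clock machinery was then read from lists of regulators, output genes and inputs. Of 58 such genes, 57 were tested and 5 (8.77%) passed an unadjusted limma p of 0.05, against 12.2% of all tested probes. The adjusted threshold was passed by 0. Among 18 tested clock regulators, 1 was higher and 1 lower at that unadjusted level, with a median difference of 0.01; of all tested probes, 3.17% were higher and 9.03% lower at it. Csnk1e, a casein kinase that marks PER proteins for degradation, read from 0.47 to 1.07 in PGC-1α f/f and from 0.83 to 1.36 in nPGC-1α, a difference of 0.37 (SE 0.15, limma adjusted p = 0.360), although its 3 tested probes gave differences from 0.05 to 0.37. Arntl2, a paralogue of Arntl, read from 0.26 to 0.64 against 0.03 to 0.40, a difference of -0.26 (SE 0.11, limma adjusted p = 0.370), while its other tested probe gave -0.03. The largest difference in the list was that of Ciart, a repressor of the dimer, whose PGC-1α f/f arrays split between -1.94 and -0.30 and whose nPGC-1α arrays lay between -1.02 and -0.23 (difference 0.57, SE 0.33, limma adjusted p = 0.507).

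Of 12 tested clock output genes 0 passed the unadjusted limma p of 0.05, against 12.2% of all tested probes (median difference -0.04). Their largest differences were those of the cold-inducible RNA-binding proteins Rbm3, 0.30 (SE 0.13, limma adjusted p = 0.421, fitted on 8 arrays), and Cirbp, 0.25 (SE 0.15, adjusted p = 0.518). The 4 probes of Rbm3 disagreed, with differences from -0.59 to 0.30, and the 2 tested probes of Cirbp gave 0.25 and 0.58.

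The immediate early genes, which neuronal activity induces alongside Per1, had a median difference of 0.22 over 12 tested genes, with 9 higher and 3 lower, where 15418 of the 39142 tested probes were higher. Of them 1 passed the unadjusted threshold, in the direction of 3.17% of all tested probes. Ier2 read -1.32, -1.29, -1.12, -0.87 and -1.23 in PGC-1α f/f and -0.79, -0.65, -0.65, -0.57 and -0.83 in nPGC-1α. All nPGC-1α arrays lay above all controls, and the difference of 0.47 (SE 0.11, unadjusted p = 0.00097) had a limma adjusted p of 0.132. Fos differed by 0.55 (SE 0.31, limma adjusted p = 0.498), with PGC-1α f/f replicate 1 far below the rest at -1.58. The mean level of the list (log2 deviation from the mean over arrays) overlapped between the groups. It lay between -0.64 and 0.21 in PGC-1α f/f and between -0.06 and 0.26 in nPGC-1α.

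Glucocorticoids entrain peripheral clocks, and of 10 genes that respond to them 1 was higher and 1 lower at the unadjusted threshold, against 3.17% and 9.03% of all tested probes. The cell cycle inhibitor gene Cdkn1a differed by 0.30 (SE 0.12, limma adjusted p = 0.351) and Pdk4, an inhibitor of pyruvate oxidation, by -0.36 (SE 0.15, adjusted p = 0.358). The kinase gene Sgk1 differed by -0.32 (SE 0.26, adjusted p = 0.646, fitted on 8 arrays). None of 10 genes of the PGC-1 family and its nuclear receptor partners passed, and the largest differences were those of Ppara, -0.19 (SE 0.12, limma adjusted p = 0.533), and Esrrg, 0.10 (SE 0.09, adjusted p = 0.649).

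Correlations of regulators with single clock genes were also read from array to array. Of 140 correlations between 14 regulators and the 10 clock genes, centred on the group means (n = 10), 14 were 0.8 or larger in size, and these are given as descriptions. The share of all probes reaching that size with each gene is not given here, so the count is not a result about regulators. With the target score, 10.9% of all probes had an r of at least 0.7 and 6.26% an r of -0.7 or less. Bhlhe41, an E-box repressor, followed Arntl (r = 0.93). Rora, a receptor that activates Arntl, followed Clock (0.90), Nr1d2 (0.84) and Dbp (0.81). Csnk1d, the other casein kinase of the PER proteins, followed Cry2 (0.85) and Per2 (0.84). Timeless followed Per2 (0.89) and Per3 (0.82), and Tef, an activator at D-boxes, followed Per2 (0.80). Npas2 ran against Per2 and Per3 (-0.83 each). Nfil3, a repressor at D-boxes, ran with Per1 (0.80) and against Nr1d1 (-0.83), and Ciart ran with Cry1 (0.82).

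Markers of other cells were read beside these values. For the suprachiasmatic nucleus, the central clock outside the hippocampus, 5 of 8 markers were above background on all 10 arrays. Six6 was at background on all 10, and Rorb had no named probe and could not be read. The mean level of the list lay between -0.39 and 0.17 in PGC-1α f/f and between -0.14 and 0.20 in nPGC-1α (log2 deviation from the mean over arrays). Choroid plexus markers varied most, from -1.27 to 1.78 and from -0.84 to 2.26, with overlapping groups. The mean levels of the microglial, endothelial, oligodendrocyte and astrocyte lists overlapped between the groups as well. Among all these markers 3 passed an unadjusted limma p of 0.05 and none the adjusted threshold, and they are named after their values were seen. They were 1 of 6 tested suprachiasmatic, 1 of 6 endothelial and 1 of 5 microglial markers. The other lists, with 5 to 10 tested markers each, held none. Of all tested probes 12.2% passed that unadjusted p, 3.17% higher and 9.03% lower. Prok2, of the suprachiasmatic list, differed by 0.79 (limma adjusted p = 0.287), the endothelial Kdr by 0.41 (adjusted p = 0.345) and the microglial Tmem119 by -0.22 (adjusted p = 0.365). The Prok2 probe was dim, with means of -4.43 in PGC-1α f/f and -3.65 in nPGC-1α. Their part in the spread of the clock genes was not tested.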

How the data were processed

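Each of 10 hippocampal RNA samples, 5 per group, was labelled with Cy3 and read on its own Agilent mouse expression array, with groups and replicate numbers taken from the labels. The authors deposited the scanner output of Feature Extraction (11.5.1.1 per the file headers), whose processed signal is an intensity after background subtraction, and a table of normalised log2 values, used here as an alternative. The labels exclude RNA with an integrity number of 6 or less. Each processed signal was put on the log2 scale and the 75th percentile of its array subtracted. Outlier spots were dropped, and a probe was tested when its spots in either group were all well above background and each group kept at least 3 values (39142 probes). The groups were compared with limma 3.58.1 in R 4.3.3 (lmFit and eBayes) with Benjamini-Hochberg adjustment over all tested probes, and correlations were computed with Python 3.11.15 and scipy 1.17.1. The fit was tested on simulated data. RefSeq accessions named 33762 probes (59.6%), and the brightest tested probe stood for a gene. The genes named beside the clock genes were those of the pathway lists (regulators, outputs and inputs, not cell type markers) with an unadjusted p below 0.05, the 2 with the largest difference in each such list, and the probes most and least like the target score. Members, lists and this rule were chosen with earlier results of these data known. Alternatives changed the scaling, background correction, filter, spots, blocks and arrays. The number of arrays limits the precision. The labels do not say that replicates are separate mice, so p-values measure the spread between these samples, which may be technical.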

Additional observations from a re-analysis of the deposited data

How the results depend on the processing

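Over 270 re-computed member differences, 243 kept their direction and side of the threshold, 24 changed sign and 3 passed the adjusted threshold. The slide and replicate blocks and the exact Mann-Whitney test cannot move these differences, and the changes of filter left each as it was. The count of 243 includes those settings, so it overstates how far the direction was tried. All 3 that passed came from scaling to the 75th percentile of the probes well above background of each array, chosen after seeing the data. That share of probes is lower on the nPGC-1α arrays, and the scaling moved the median difference of all tested probes from -0.05 to -0.31. Cry2 (-0.31, limma adjusted p = 0.0494), Clock (-0.44, adjusted p = 0.0315) and Nr1d2 (-0.33, adjusted p = 0.0452) then passed along with 27.2% of all tested probes. These values include the move of the scale that took the median from -0.05 to -0.31. Under it 5 members and 23 pathway genes passed the unadjusted p (47.9% of all tested probes), the scores had r = 0.796, Arntl and Dbp r = 0.082, and Per1 (-0.15), Per3 (-0.21), Arntl (-0.097) and Nr1d1 (-0.068) changed sign.

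Small differences turned with other settings. On the 6 arrays without Y-linked signal, Per1 was -0.13 and Per3 -0.12, and Arntl and Dbp had r = 0.103. There 2 of 55 tested pathway genes passed the unadjusted p, beside 4.42% of all tested probes. With the Y-linked class in the fit Per3 was -0.0044 and 1 member, Clock, passed the unadjusted p, beside 11.59% of all tested probes. Without the 2 arrays with over 10% outlier spots, also chosen after seeing the data, Per1 was -0.050, Per3 -0.039, Arntl -0.0039, and r of Arntl and Dbp 0.086. Dbp was 0.059 after quantile normalisation, 0.058 in the authors' values, 0.10 after normexp, 0.0029 on slide 1 and 0.014 with array weights, and Cry2 was 7.7e-06 after normexp. With all tested probes of a gene averaged, Arntl was -0.031, 8 pathway genes passed, and Arntl and Dbp had r = -0.69 (permutation p = 0.0227). Median scaling gave 2 pathway genes, beside 11.58% of all tested probes, and the exact Mann-Whitney test 3. For the averaged probes and the Mann-Whitney test the share over all genes is not given here, so those counts are not results about the pathway. The scores had r = 0.63 after median scaling, -0.077 after normexp, -0.68 with Npas2 added and -0.23 with Arntl alone, and r of Arntl and Dbp was 0.15 without the 2 arrays farthest from the Arntl median. The cause of these changes was not tested. Pearson's r of Arntl and Nr1d1 stayed negative, from -0.58 to -0.07, while rho was 0.139 after normexp and 0.127 with the percentile of probes well above background.

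Leaving out single arrays gave differences from -0.018 to 0.19 for Per1, from -0.23 to 0.040 for Per2, from -0.027 to 0.15 for Per3 and from -0.085 to 0.029 for Dbp. The counts were 0 members and 1 (without PGC-1α f/f replicate 2) to 9 (without PGC-1α f/f replicate 4) pathway genes. The share of all tested probes passing the unadjusted p moved likewise, from 8.23% to 15.75% without the same arrays. The r of the scores ran from -0.048 to 0.447, and r of Arntl and Dbp from -0.61 to 0.18, positive without PGC-1α f/f replicate 1. Arrays of the same number shared a column of slide 1 (numbers 1 to 4) or slide 2 (number 5). Their deviations correlated at 0.215, 0.078, 0.113, 0.18 and 0.356, and not each array correlated best with its own number, so the numbers were not taken as pairs. With the replicate block 0 members and 5 pathway genes passed, beside 16.85% of all tested probes. The scores then had r = 0.89 and Arntl and Dbp r = 0.31, over what are then 5 independent differences. No paired analysis was otherwise made.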

Other observations

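Beyond the clock itself, the pattern of the target score was widely shared. With values centred on the group means, 10.9% of 34000 probes had an r of at least 0.7 with it and 6.26% an r of -0.7 or less. Among the members, Per3 (0.94) and Per2 (0.92), which are part of the score, followed it most closely, Cry2, which is not, had 0.75, and Nr1d1, which is part of it, had -0.68. Outside the members, the closest probes were those of Neil2, a DNA glycosylase (r = 0.97), Bnip3, a mitophagy receptor (0.97), Rbm6, an RNA-binding protein (0.96), Polr3gl, a subunit of RNA polymerase III (0.96), and Tspear (0.96). The most opposed were those of Mamld1 (-0.98), Gm11423 (-0.96), Atat1, the tubulin acetyltransferase (-0.96), Nol9 (-0.96) and Mcm3, a subunit of the replicative helicase (-0.96). These are the ends of 34000 correlations over 10 arrays and carry no test.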
